A study of Mus musculus with 3 samples.

Results

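Sat1 and 9 further genes that make, break down or regulate polyamines were followed in LepR+ cells of the superior cervical ganglia, which lie at the top of the sympathetic chain. The 10 genes, Sat1, Odc1, Amd1, Srm, Sms, Oaz1, Oaz2, Azin1, Smox and Paox, were taken by symbol from the 52550 genes of the deposited table, and each symbol matched 1 row. They were proposed with their values known, Sat1 for its high level, so their levels are given as a description with no test. The mice were males of 10 weeks that carried Cre at the leptin receptor gene together with Ai32, a Cre-dependent reporter, and the genotype is written LepRCRE::Ai32. Live YFP+ cells were sorted and made into Smart-Seq2 libraries, which copy full-length RNA and amplify it by PCR. The 3 libraries are biological replicates of 1 group with no second group, and the sources used here do not give how many animals or cells went into each. Levels are in TPM, in which reads are divided by gene length and scaled to the same total in every library. The reporter marks cells that expressed Lepr at any time up to the sort.

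Polyamines are small positively charged molecules that bind nucleic acids, set the translation factor eIF5A and block inward rectifier potassium channels. Ornithine decarboxylase (Odc1) makes putrescine, and spermidine synthase (Srm) and spermine synthase (Sms) extend it with aminopropyl groups that S-adenosylmethionine decarboxylase (Amd1) supplies. Spermidine/spermine N1-acetyltransferase (Sat1) acetylates the longer polyamines for export or for oxidation by Paox, and Smox oxidises spermine directly. Antizymes (Oaz1, Oaz2) carry Odc1 protein to the proteasome, and the antizyme inhibitor Azin1 binds antizyme in its place. Much of this control acts on translation, splicing and protein decay, which RNA levels per gene do not show.

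Replicates 1, 2 and 3 held 8239045, 8038890 and 7721994 reads assigned to genes, worked back from the deposited values, and 27398 genes had at least 1 read in at least 1 library. A single read amounted to between 0.391 and 0.418 TPM per kb of exon. Markers went only in part with the perineurial name in the series title: 2 of 8 perineurial genes reached 1 TPM in every library, against all 8 satellite glial and Schwann genes, all 6 fibroblast genes and all 6 endothelial genes. Of the other lists, 5 of 6 mural, 1 of 6 neuron and 0 of 6 macrophage genes did so. The share over all genes with a read was 23.7%. Summed TPM ran from 224 to 452 for the perineurial, 27292 to 32478 for the glial, 4463 to 6613 for the fibroblast and 295 to 346 for the endothelial list. Krt19 of the perineurial and Npy of the neuron list had no read. The levels below therefore belong to a sort with RNA of several cell types, and in bulk RNA fewer cells of a type and less RNA per cell cannot be told apart.

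3 sequences are shown for Sat1, the highest of the 10 genes, and Odc1, the first enzyme of synthesis. 1 of them, an exon, bears on how Sat1 can be read from a table with 1 value per gene. The promoters are given as a description and were not set against any level. The first is an exon of 110 bases, exon 4 of 7 in 1 annotated Sat1 transcript and absent from the main coding one, at chrX:155215121-155215230 on the reverse strand of GRCm38 (GENCODE M21). Capitals mark the first stop codon in the frame of the coding transcript, which starts at base 12 of the exon. M21 classes the transcript with this exon as a target of nonsense-mediated decay, and all 7 annotated Sat1 transcripts, 2 coding, 1 of this class and 4 with a retained intron, fall under the single value of the table.
Sat1 extra exon: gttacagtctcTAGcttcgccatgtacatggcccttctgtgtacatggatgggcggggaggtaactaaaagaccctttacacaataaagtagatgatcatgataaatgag

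The other 2 sequences are the RefSeq promoters of both genes on GRCm38.p6, from 250 bases before to 50 bases after the start, at chrX:155216400-155216699 (reverse strand) for Sat1 and chr12:17544623-17544922 (forward strand) for Odc1. Capitals mark GC boxes, GGGCGG on either strand, a motif that 35.66% of all 32851 promoters of the same length hold.
Sat1 promoter: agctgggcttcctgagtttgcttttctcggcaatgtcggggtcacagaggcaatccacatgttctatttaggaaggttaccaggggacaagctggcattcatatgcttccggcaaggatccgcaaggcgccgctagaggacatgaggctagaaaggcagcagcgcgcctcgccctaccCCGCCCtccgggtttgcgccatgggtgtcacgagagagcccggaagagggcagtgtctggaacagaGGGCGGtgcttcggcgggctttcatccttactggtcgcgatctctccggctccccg
Odc1 promoter: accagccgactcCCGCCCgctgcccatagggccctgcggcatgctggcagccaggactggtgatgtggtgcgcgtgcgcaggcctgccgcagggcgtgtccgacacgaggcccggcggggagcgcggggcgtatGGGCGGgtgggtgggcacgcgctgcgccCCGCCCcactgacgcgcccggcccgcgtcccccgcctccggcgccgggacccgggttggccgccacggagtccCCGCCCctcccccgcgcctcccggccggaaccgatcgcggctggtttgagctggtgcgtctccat

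The Sat1 promoter held 2 GC boxes, 21 CpG and 60.3% G or C, and the Odc1 promoter held 4 GC boxes, 42 CpG and 78% G or C. Neither window held the polyamine-responsive element TATGACTAA, the E-box CACGTG, the antioxidant response element core TGACNNNGC, the cyclic AMP response element TGACGTCA, the TATA box TATAAA or the CCAAT box CCAAT on either strand. Bases outside the windows were not searched, so sites farther upstream or within either gene would be missed. Among all promoters, 0.0974% held TATGACTAA, 7.15% CACGTG, 12.39% TGACNNNGC, 1.79% TGACGTCA, 13.62% TATAAA and 37.41% CCAAT. The Odc1 start annotated by RefSeq lies inside the first exon of the M21 transcript, so that window covers part of the transcribed region.

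Sat1 (ENSMUSG00000025283.15, chromosome X, 155213132 to 155216449 of GRCm38, reverse strand) had 6177, 4437 and 3724 TPM in replicates 1, 2 and 3, from 43779, 31502 and 24725 reads. Its mean was 4779 ± 1262 TPM (SD, n = 3), and the highest library stood 1.66 times above the lowest. Among genes with a read it ranked at place 9, 16 and 16 in the 3 libraries and took 0.618%, 0.444% and 0.372% of all TPM. Of the TPM summed over the 10 genes, Sat1 made up 86.4%, 85.7% and 80.1%. 1 processed pseudogene, Gm5552, matches 44.06% of the Sat1 transcript at 96.7% identity, and it had 32, 25 and 14 reads, against 43779, 31502 and 24725 on Sat1.

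The other breakdown enzymes were far lower and less even. Smox (chromosome 2), the spermine oxidase, had 7.56, 47.3 and 128 TPM, a range of 16.9 times from 75, 471 and 1194 reads. Paox (chromosome 7), the peroxisomal oxidase that acts on acetylated polyamines made by Sat1, had 55.9, 0.259 and 0.447 TPM from 700, 3 and 5 reads. Replicate 1 was thus the lowest of the 3 for Smox and the only one with more than 5 reads on Paox. Counting error alone gives 3 and 5 reads of Paox exact Poisson 95% intervals of 0.0493 to 0.698 and 0.138 to 0.994 TPM, both below replicate 1. The libraries carry PCR duplicates and no molecular identifiers are named, so these intervals cover counting error only.

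**Figure D1:**
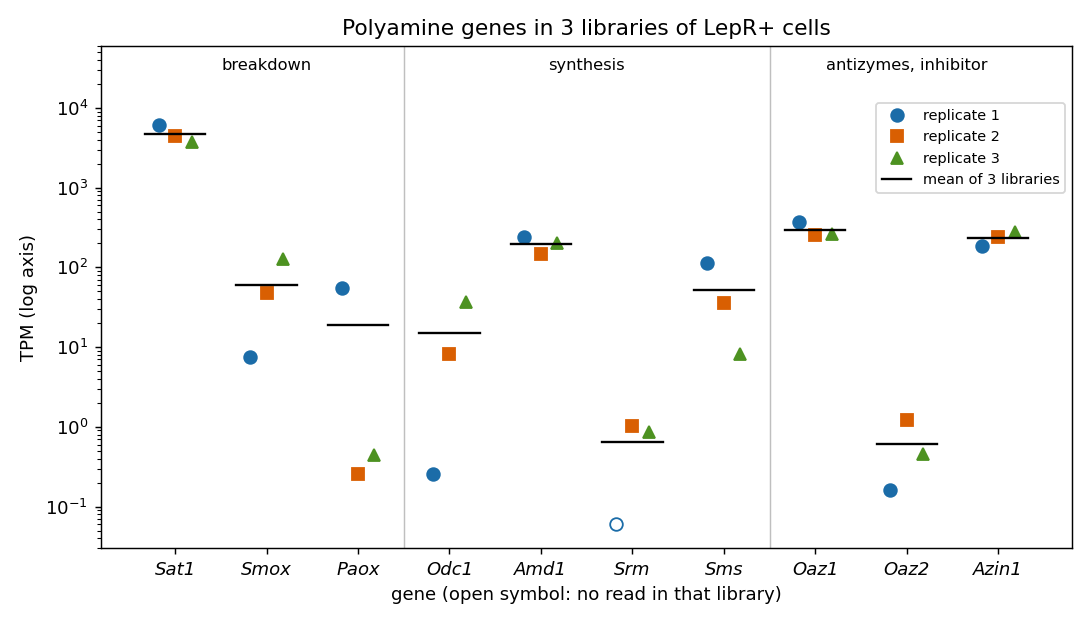
TPM on a log axis for the 10 genes, grouped by role, in each of the 3 libraries, with the mean as a line and an open symbol for a library without a read. Sat1 lies from 3724 to 6177 TPM, above every other gene in every library, while Smox, Paox, Odc1 and Sms spread over more than 10 times.

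The synthesis enzymes differed in level and in evenness. Amd1 (chromosome 10, 40287458 to 40302186), the decarboxylase that supplies aminopropyl groups, had 239, 146 and 204 TPM, or 196 ± 47.0 TPM (SD, n = 3). Sms (chromosome X), the spermine synthase, had 112, 35.6 and 8.08 TPM from 1722, 548 and 116 reads. Odc1 (chromosome 12, 17544794 to 17551505), which makes putrescine, had 0.259, 8.29 and 36.4 TPM from 2, 72 and 296 reads. The 2 reads of replicate 1 allow 0.0278 to 0.830 TPM (exact Poisson 95% interval), below both other libraries. Srm (chromosome 4), the spermidine synthase, had 0, 4 and 3 reads, which was 1.04 and 0.849 TPM in replicates 2 and 3. For replicate 1, 3 reads would have been 0.734 TPM, and the exact Poisson 95% interval of the 4 reads in replicate 2 starts at 0.266 TPM, below that value, so a difference between libraries was not detectable at this depth. Sms was above Srm in all 3 libraries.

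Oaz1 and Azin1 varied less between libraries than Smox, Paox, Sms and Odc1. Oaz1 (chromosome 10, 80826656 to 80829290), the main antizyme, had 372, 258 and 263 TPM, or 297 ± 64.8 TPM (SD, n = 3). Oaz2 (chromosome 9), the second antizyme, had 1, 9 and 3 reads, which was 0.164, 1.21 and 0.454 TPM. Azin1 (chromosome 15, 38487427 to 38519266), the antizyme inhibitor, had 184, 242 and 282 TPM, or 236 ± 49.0 TPM (SD, n = 3). Oaz1 was above Oaz2 in 3 of 3 libraries, with no fold given at so few reads of Oaz2. In log2(TPM + 1), Azin1 minus Oaz1 was -1.01, -0.09 and 0.10 in replicates 1, 2 and 3. Azin1 and Oaz1 thus lay close in replicates 2 and 3, and Azin1 was higher in 1 of 3 libraries.

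Odc1 was below both of its regulators in every library, although the gap varied. On the log2(TPM + 1) scale, Odc1 minus Azin1 was -7.20, -4.71 and -2.92, and Odc1 minus Oaz1 was -8.21, -4.80 and -2.82. The gap was widest in replicate 1, where Odc1 had 2 reads.

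Set against the other genes within each library, Sat1 was higher in 3 of 3 libraries for all 9. Over the 5 genes with at least 10 reads in every library, Sat1 minus Oaz1 was 3.99 ± 0.15, Sat1 minus Azin1 4.32 ± 0.68, Sat1 minus Amd1 4.60 ± 0.38, Sat1 minus Smox 6.96 ± 2.35 and Sat1 minus Sms 7.12 ± 1.47 in log2(TPM + 1) (SD, n = 3). In TPM, Sat1 stood 14.2 to 17.2 times above Oaz1, the next gene by mean. The difference from Oaz1 varied least between libraries. No fold is given against Srm, Oaz2, Odc1 and Paox, which had 5 or fewer reads in at least 1 library.

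**Figure D2:**
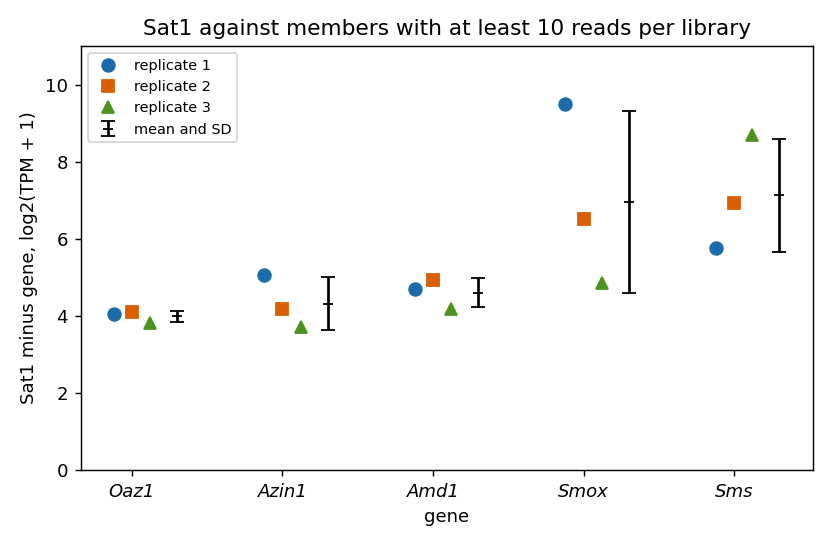
Sat1 minus each of the 5 genes with at least 10 reads in every library, in log2(TPM + 1), with 1 symbol per library and the mean with its SD at the right of each gene. The difference from Oaz1 stays between 3.82 and 4.10, while that from Smox runs from 4.85 to 9.49.

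By mean TPM the order was Sat1, Oaz1, Azin1, Amd1, Smox, Sms, Paox, Odc1, Srm and Oaz2. Sat1 and Oaz1 did not overlap over the 3 libraries, and neither did Amd1 and Smox. Ranges overlapped for every other pair of neighbours. Between Oaz1 and Azin1 and between Azin1 and Amd1 the upper gene was higher in 2 of 3 libraries, and the mean differences, 0.33 ± 0.59 and 0.28 ± 0.57 in log2(TPM + 1) (SD, n = 3), were smaller than their spread. The same held for Smox and Sms (0.17 ± 3.78). Paox was above Odc1 in 1 of 3 libraries (-0.69 ± 5.44, the one pair whose order by mean TPM and by log2 differs), and Srm was above Oaz2 in 1 of 3 (0.03 ± 0.27), again with differences smaller than their spread. 6 of the 10 genes, Sat1, Oaz1, Azin1, Amd1, Smox and Sms, were at or above 1 TPM in every library, as were 23.7% of all genes with a read. Since the genes were proposed from these values, nothing is read from that count.

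The spread between libraries was compared with that of the 200 genes nearest in level. The SD of log2(TPM + 1) was 0.37 for Sat1, and the median SD of its neighbours was 0.39. Oaz1, Azin1 and Amd1 had SDs of 0.30, 0.31 and 0.36, below neighbour medians of 0.50, 0.49 and 0.56. Smox, Sms, Paox and Odc1 had SDs of 1.98, 1.82, 3.12 and 2.46, above neighbour medians of 1.14, 1.41, 2.30 and 2.34. Of their neighbours, 83.5%, 71%, 75% and 60% had a lower SD. In all, 4 of the 10 genes lay above the median SD of genes of like level, a count that was 7 without replicate 2 and 8 without replicate 3. By construction about as many genes lie above such a median as below it, so nothing is read from this count.

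**Figure D3:**
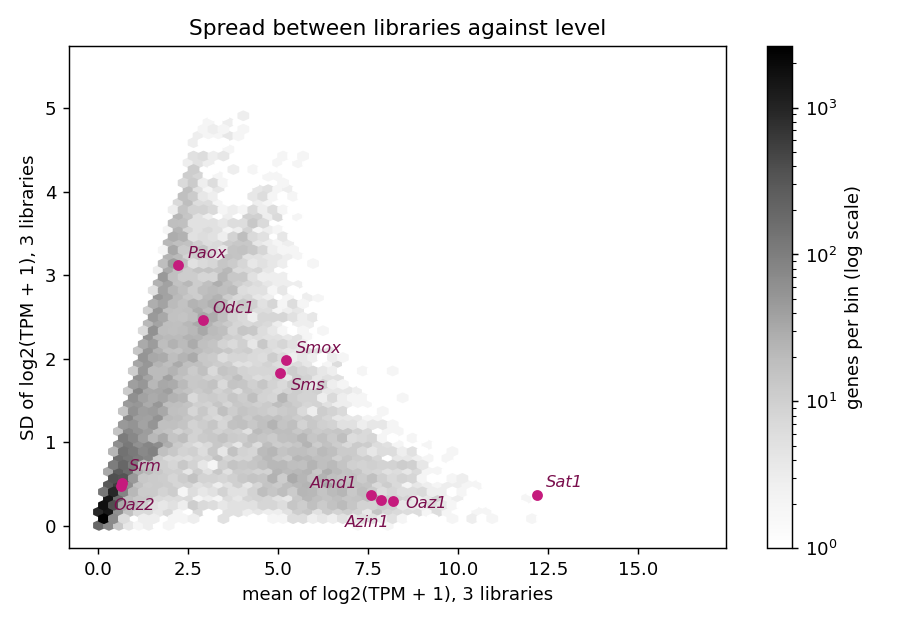
SD of log2(TPM + 1) over the 3 libraries against its mean, with all genes with a read as grey bins on a log colour scale and the 10 polyamine genes as labelled points. Sat1 is at the right end with an SD of 0.37, and Paox is the most variable of the 10 with an SD of 3.12.

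Other values moved between the same libraries. Summed TPM of 6 macrophage markers was 0.990, 85.02 and 101 in replicates 1, 2 and 3, where Odc1 and Smox were likewise lowest in replicate 1. These markers did not all move together. Cd68 had 0, 196 and 0 reads, and its 61.0 TPM made up most of the sum in replicate 2. Tyrobp, Ptprc, Lyz2 and Csf1r rose from replicate 1 to replicate 3, Csf1r with only 3, 5 and 7 reads. Aif1 of that list had no read. Lepr had 363, 32.1 and 54.0 TPM, highest in replicate 1 as Paox was. Summed TPM of 6 mural markers was 474, 347 and 133, and Sms was also highest in replicate 1 and lowest in replicate 3. Of the mural list, Rgs5, Acta2 and Pdgfrb followed that order. Mcam had 33.8, 150 and 45.3 TPM, Abcc9 had 21.1, 14.9 and 30.6 TPM, and Des had 0, 1 and 1 reads. The part of these markers and of Lepr in the differences was not tested.

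Several genes have near copies in the genome, so their reads could be placed on another row. Copies were taken as genes with a transcript that covers at least 30% of the gene's longest coding transcript at 85% identity or more. Odc1 had 16 such copies, 8 of them with a read, and together they had 3, 360 and 1172 reads, more than Odc1 itself with 2, 72 and 296. These are the reads over all exons of each copy, not only over the stretch that matches Odc1. AW146154, a gene on chromosome 7 that M21 annotates as protein coding, matched 59.56% of the Odc1 transcript at 93.17% identity and had 2, 192 and 1166 of these reads. Both it and Odc1 were lowest in replicate 1 and highest in replicate 3. Oaz1-ps, a processed pseudogene that matches 63.59% of the Oaz1 transcript at 99.27% identity, had 106, 12.2 and 25.9 TPM. That was from 185, 21 and 42 reads, against 2432, 1686 and 1607 on Oaz1. Amd2, which matches 99.81% of the Amd1 transcript at 99.56% identity, had 15, 11 and 11 reads, and the 7 copies of Amd1 together had 33, 28 and 29 reads, against 2159, 1319 and 1728 on Amd1. Srm had 2 copies, with 2 reads in replicate 1 and none elsewhere. The sources used here do not say how reads that fit several places were counted, so the levels of Odc1, Oaz1, Amd1 and Srm are uncertain to that extent. By this rule Sms, Oaz2, Azin1, Smox and Paox had no copy. 2 further rows carry a member's name as a pseudogene: Sms-ps had 15, 2 and 0 reads, in the same order of libraries as Sms, and Oaz2-ps had none.

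The paralogs of the 10 genes had few reads in most libraries. Sat2, an acetyltransferase related to Sat1, had 14, 0 and 67 reads, or 3.92 and 19.7 TPM in replicates 1 and 3. Amd2 had 1.85, 1.37 and 1.46 TPM. Azin2, an antizyme inhibitor known mainly from brain and testis, had 19 reads in replicate 3 and none elsewhere. No read fell on Satl1 or on Oaz3, the testis antizyme, for which 3 reads equal 0.271, 0.271 and 0.290 TPM. Of the 3 paralogs with a read, limma called 0 above and 0 below 1 TPM, also at an unadjusted p under 0.05. Satl1 and Oaz3 were not tested.

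The genes around the pathway, none of them among the 10, were tested for a level above or below 1 TPM with limma, with Benjamini-Hochberg adjustment over all 27398 genes with a read. Of their 66 rows, 14 were above, 9 below, 36 neither and 7 without a read. Of all genes tested, each with a read, 16.2% were called above and 13.7% below. With protein-coding genes only, 4311 of 17138 genes were above and 3735 below, larger shares than over all 27398. Of these rows, 15 were then above and 12 below, and no excess is read from the counts. The calls given here use all 27398 genes and rest on having all 3 libraries: without replicate 1 or without replicate 2 limma called 0 of these rows, and 0 of all genes, in either direction. At an unadjusted p under 0.05, 13 and 11 of these rows were then above and 13 and 17 below. With all 3 libraries, the calls below also fell to 0 against a level of 0.5 TPM, among genes averaging 0.5 TPM or more, and after rescaling without mitochondrially encoded genes, so every gene given as below in the lists that follow is below only under some settings.

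Genes that lead to and from ornithine were uneven. Of 12, 3 were above and 1 below. Oat, which converts ornithine to and from glutamate semialdehyde in mitochondria, had 688, 553 and 911 TPM (limma, adjusted p = 0.00336). Gatm, which joins arginine and glycine and releases ornithine, had 648, 491 and 822 TPM (limma, adjusted p = 0.00336). Slc7a2, a cationic amino acid transporter, had 77.7, 14.4 and 204 TPM (limma, adjusted p = 0.0486). The 1 below was Otc, the ornithine carbamoyltransferase of the urea cycle, with 1 read. No read fell on Slc25a2, a mitochondrial ornithine carrier, or on Arg2, the mitochondrial arginase. For Arg2, 3 reads equal 0.822, 0.821 and 0.878 TPM. Slc25a15, another mitochondrial ornithine carrier, is also named here after its values were seen. It had 6.90, 41.9 and 9.15 TPM and passed in neither direction (limma, adjusted p = 0.0510). Arg1, named here after its values were seen, had 376 reads in replicate 1, or 66.1 TPM, and none in the other libraries.

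In the methionine cycle, which supplies S-adenosylmethionine to Amd1, and in the salvage of the methylthioadenosine that Srm and Sms release, 5 of 13 genes were above and 2 below. Mat2a, the catalytic methionine adenosyltransferase outside the liver, had 727, 618 and 281 TPM (limma, adjusted p = 0.00420), and its regulatory partner Mat2b had 91.7, 97.3 and 136 TPM (limma, adjusted p = 0.00343). The salvage enzymes Apip, Adi1 and Mtap were the others above. Apip had 61.9, 122 and 96.2 TPM. Adi1 had 8.15, 66.1 and 125 TPM, and Mtap, which cleaves methylthioadenosine, had 5.61, 10.9 and 16.0 TPM. Mtrr and the betaine methyltransferase Bhmt, with 3 reads and 1 read in all, were the 2 below.

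Spermidine serves as the donor for hypusine, the modified lysine of eIF5A. Of 5 rows for these genes, 2 were above and 0 below, also 0 below at an unadjusted p under 0.05. Dhps, which starts the modification, had 62.0, 24.1 and 149 TPM (limma, adjusted p = 0.0267), and Eif5a2 had 52.8, 31.3 and 13.7 TPM (limma, adjusted p = 0.0244). Eif5a, the main form, had 88.8, 219 and 1.27 TPM and passed in neither direction (limma, adjusted p = 0.137). Dohh, which completes the modification, had 9, 54 and 1 reads on 1 row and none on the other row of that name.

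Of 12 transport genes, 1 was above, 4 below, 6 neither and 1 without a read. Over all genes tested, 16.2% were above and 13.7% below. Atp13a3, a P5B-type ATPase linked to polyamine uptake, had 99.0, 57.8 and 118 TPM (limma, adjusted p = 0.00497). Slc18b1, a vesicular polyamine transporter, had 20.2, 76.9 and 1.06 TPM, and Slc3a2, a heavy chain of amino acid transporters, had 0.693, 43.8 and 17.2 TPM. Among those below were Gpc1, Atp13a4 and Slc12a8, each with 5 or fewer reads in all, and Slc22a2 was without a read (3 reads equal 0.555, 0.554 and 0.593 TPM).

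For the oxidation of putrescine and the handling of its aldehydes, 1 of 5 genes was above and 1 below. Aldh7a1 had 36.8, 92.3 and 7.28 TPM (limma, adjusted p = 0.04997). The one below was Aoc1, the diamine oxidase, with 1 read. Maob, a mitochondrial monoamine oxidase, had 98, 1043 and 0 reads, and Aldh9a1, an aldehyde dehydrogenase that makes GABA from the putrescine product, had 2.34, 3.03 and 96.1 TPM.

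Of 8 transcription factors and partners linked to Sat1 or Odc1, limma called 0 above and 0 below, and 1 above and 2 below at an unadjusted p under 0.05. Nfe2l2, a factor of the oxidative stress response, had 22.7, 180 and 0.798 TPM. Trp53 had 71.8, 1.28 and 0.336 TPM, and Max, the partner of Myc, had 6.77, 38.1 and 5.02 TPM. Myc, which is known to act on Odc1, had 0, 2 and 0 reads.

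Inward rectifier potassium channels, which polyamines block from inside the cell, were split. Of 6 genes, 2 were above and 1 below. Kcnj16 had 28.8, 323 and 284 TPM (limma, adjusted p = 0.0403) and Kcnj10, the channel of satellite glia, had 56.6, 289 and 17.9 TPM (limma, adjusted p = 0.0486). Kcnj3 was below with 3 reads in all, Kcnj12 had 3 reads in replicate 2 only, and Kcnj4 was without a read (3 reads equal 0.546, 0.545 and 0.582 TPM).

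**Figure D4:**
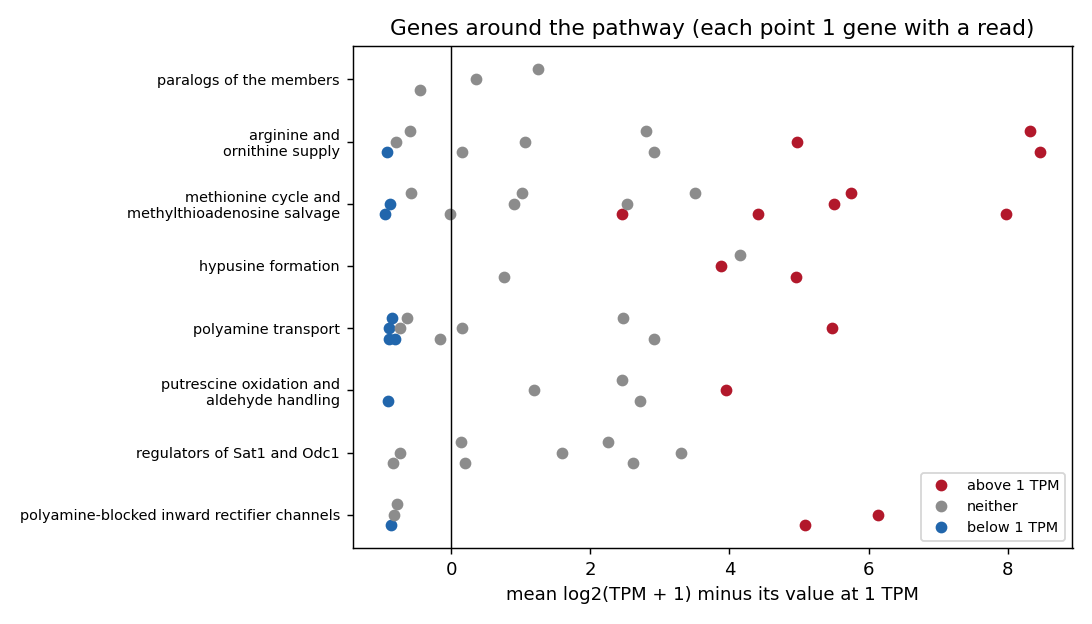
Mean log2(TPM + 1) minus its value at 1 TPM for each gene around the pathway with a read, by list, coloured by limma's call at an adjusted p under 0.05. The points farthest to the right are Oat and Gatm of the arginine and ornithine list and Mat2a of the methionine list.

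The 5 genes whose levels over the 3 libraries were nearest to those of Sat1, by root mean square difference in log2(TPM + 1), were Malat1 (0.32), Itm2b (0.32), B2m (0.36), Fth1 (0.38) and Dbi (0.42). Malat1, a nuclear long noncoding RNA, had 4298, 3991 and 3861 TPM, and Fth1, the ferritin heavy chain, had 3965, 4674 and 4168 TPM. Likeness over 3 libraries here means a like level, and Sat1 was above both in replicate 1 and below both in replicate 3.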

How the data were processed

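RNA was measured in 3 Smart-Seq2 libraries of 1 group. The authors deposited log2 TPM, whose linear values have the same total in each library. STAR, featureCounts and the build mm10 (GRCm38) were used, per the submitters' processing notes. The sources used here do not give their versions, the annotation, the strand setting, any filter or the treatment of reads that fit several places. Without a known strand setting, reads of overlapping genes cannot be told apart. The deposited values showed that 0.25 read had been added per gene. Whole reads were recovered for 52550 of 52550 genes, within 0.02 of a read with M21 exon lengths (49035 genes have the same ID version there). For 2759 genes, Azin1 included, the length was itself solved from the values as the smallest that gave whole reads within 0.0002, so their reads are less certain.

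Levels are the deposited TPM, mean and SD over libraries, and differences are on log2(TPM + 1), which understates those of low genes. limma 3.58.1 (R 4.3.3, two-sided, threshold 0.05, prior degrees of freedom 1.20) tested mean log2(TPM + 1) against 1 TPM over 27398 genes with a read, and was tested on simulated data. Those data held upward shifts only and values without a lower bound, so calls below 1 TPM were not checked by them. With 1 group, a p-value sets the distance of the mean from 1 TPM against the spread between these libraries. Other work used Python 3.11.15, numpy 2.4.6, pandas 2.3.3, scipy 1.17.1, matplotlib 3.10.9 and blastn 2.17.0. Named were the 10 genes, the 3 highest and the lowest of each pathway list with any a small count singles out (1 such gene is not reported here), and the 5 genes nearest to Sat1. The members, lists and tests were chosen with earlier results of these data known. Alternatives changed the pseudocount, level, filter, limma's trend, the scaling and the libraries used.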

Additional observations from a re-analysis of the deposited data

How the results depend on the processing

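Sat1 stayed the highest of the 10 genes in all 45 pairings of another gene with an alternative setting. Sat1 was the highest in each library, so leaving out a library or changing the pseudocount could not reverse this. Only the use of reads not divided by length could have done so. There the smallest difference was 3.16 in log2 units, against Azin1. Its mean was 4081 to 5307 TPM with 1 library left out. No paired analysis was possible because there is 1 group. The number of genes that varied more than those of like level, 4, ran from 3 to 8 with 1 library left out. The calls around the pathway depended on the settings: against 14 above, 0 to 7 were above with 1 library left out, and against 9 below, 0 to 6. Below 1 TPM there were 0 at a level of 0.5 TPM, 17 at a level of 2 TPM, 23 with no filter on low values, 0 when only genes averaging 0.5 TPM or more were tested, 18 with a mean-variance trend and 0 when TPM was rescaled without mitochondrially encoded genes. Over all genes, 4431 above and 3745 below became 4227 and 0, 4400 and 10964, 6258 and 29850 (of 52550 tested), 4736 and 0, 5584 and 9649, and 4146 and 0 under those 6 settings in that order. They became 0 and 0 without replicate 1 or 2, and 2435 and 4892 without replicate 3. 2 alternatives chosen after seeing the data, other solved lengths and protein-coding genes only, each gave 15 above and 12 below. Over all genes they gave 4531 above and 5491 below of 27567 tested, and 4311 and 3735 of 17138, in that order. The cause was not tested. Depth limits Srm and Oaz2, with at most 4 and 9 reads in a library. Groups of 3 are too small for a check of single outlying libraries.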

Other observations

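RefSeq promoters, from 250 bases before to 50 bases after the start on GRCm38.p6, were held for 8 of the 10 genes in 10 windows, with 2 windows each for Paox and Sms. Of these windows, 9 had a G or C share above the median of all promoters, 52.7%, the exception being 1 of the 2 Sms windows with 50.3%. GC boxes, GGGCGG on either strand, were in 8 of the 10 windows, against 35.66% of all promoters. The 2 Paox windows overlap and hold the same 3 GC boxes, so that stretch is counted in both. Smox had 6 of them, the most of any window, and Oaz1 and the same Sms window had none. TGACNNNGC was in 2 windows, those of Oaz1 and Smox, CACGTG was in 1 Sms window and TATAAA was in the Oaz1 window. These are matches of letters in a window and were not set against any binding data.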
